A study of Homo sapiens with 42 samples.

Results

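The cytosolic chaperonin TRiC, also called CCT, is assembled from the products of 8 genes: TCP1, CCT2, CCT3, CCT4, CCT5, CCT6A, CCT7 and CCT8. These were the members by name, 8 of 60606 genes measured, and all 8 were among the 14426 genes that passed the filter on low values. Their levels were measured in AC16 cells, a human line labelled cardiomyocyte-like, across 10 groups of 3 libraries of polyA-selected RNA. The question of the series is how ribosomes with the muscle-specific protein RPL3L act in dilated cardiomyopathy. The libraries were given as TPM, a relative level per transcript length that keeps no depth, so the depth is unknown.

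In 7 groups the cells carried a doxycycline-induced hairpin against RPL3 (a large-subunit ribosomal protein), together with RPL3L bearing 1 variant, which was G27D, P291L, R161W, T189M, D308N, D308V or R343W. RPL3L is the paralog of RPL3 found mainly in heart and skeletal muscle. The group RPL3L-WT carried the same hairpin with wild-type RPL3L, the group shRPL3 the hairpin alone, and the group shScramble a scrambled hairpin with neither RPL3L nor the RPL3 hairpin. All 30 cultures received doxycycline at 1 ug/ml, shScramble included. Hairpin constructs came in by lentivirus with hygromycin selection, and RPL3L constructs by lentivirus into the RPL3 hairpin cells, which were then sorted for BV421 signal. RPL3L was therefore driven from a construct, and no label says whether a line was 1 clone or whether replicates came from separate cultures, so p-values measure only the spread between libraries. Another 12 libraries of nuclear RNA were not used here.

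TRiC is a barrel of stacked rings in the cytosol that encloses unfolded proteins and folds them with energy from ATP. Each ring holds every one of the subunits in a fixed order, so the complex needs all of them. Actin and tubulin are its best known clients, and proteins with WD40 repeats are another class. Prefoldin hands unfolded actin and tubulin to it, and phosducin-like proteins act as its cofactors. In the heart, actin and tubulin form the sarcomere's thin filament and the microtubules.

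Several libraries stood apart from their labels or from the rest. RPL3 was at 539, 499.6 and 569.8 TPM in shRPL3, against 1565, 1534 and 1611 TPM in shScramble (log2 fold change -1.55, SE 0.18, limma adjusted p = 6.22e-07). The libraries labelled R161W held 1059, 1686 and 1570.1 TPM of RPL3, although their labels give the hairpin. R161W 2 and 3 were near shScramble, while R161W 1 lay below every shScramble library and above every shRPL3 library. The libraries labelled T189M held 779.7, 802 and 1246 TPM, each above the RPL3L-WT libraries of its kind (445 and 439 TPM in the second kind, 673 TPM in the first). The library labelled shRPL3 3 held 121 TPM of RPL3L, against 0.03 and 0.04 TPM in shRPL3 1 and 2 and 2145 to 5198 TPM in cells with a construct. The levels of 334 pseudogenes also split the libraries into 2 kinds that no label names. The smaller kind held 6 libraries: G27D 3, R161W 1, T189M 1 and 2, and RPL3L-WT 1 and 2. It is called the second kind, and the other 24 libraries the first kind. A value called pooled ignores the kinds, and a value called within kinds comes from the same limma model with the kind as a term. Of 11 cardiomyocyte markers 0 had a median of at least 1 TPM, and their sum was 0.148 to 2.50 TPM in a library. All 7 fibroblast and smooth muscle markers passed that level, with sums of 4080.1 to 6154 TPM, and 0 of 3 endothelial markers did. Fewer cells of a type and less RNA per cell cannot be told apart in such bulk RNA.

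The members lie apart from each other in the genome (GRCh38, GENCODE 29). TCP1, the first subunit found and named for the mouse t-complex, lies on chromosome 6 from 159778498 to 159789749 on the minus strand (ENSG00000120438.11), with 12 exons and 556 codons. CCT2, mutated in a form of inherited blindness, lies on chromosome 12 from 69585334 to 69601570 on the plus strand (ENSG00000166226.12), with 16 exons and 535 codons. CCT3 lies on chromosome 1 from 156308968 to 156367873 on the minus strand (ENSG00000163468.14), with 14 exons and 545 codons. CCT4, mutated in a rat with sensory neuropathy, lies on chromosome 2 from 61868089 to 61888804 on the minus strand (ENSG00000115484.14), with 14 exons and 539 codons. CCT5, mutated in a human sensory neuropathy, lies on chromosome 5 from 10249921 to 10266412 on the plus strand (ENSG00000150753.11), with 11 exons and 541 codons. CCT6A, whose paralog CCT6B is expressed mainly in testis, lies on chromosome 7 from 56051630 to 56063989 on the plus strand (ENSG00000146731.10), with 14 exons and 531 codons. CCT7 shares chromosome 2 with CCT4 and lies from 73233420 to 73253021 on the plus strand (ENSG00000135624.15), with 12 exons and 543 codons. CCT8, whose worm counterpart extends lifespan when overexpressed, lies on chromosome 21 from 29055805 to 29073797 on the minus strand (ENSG00000156261.12), with 15 exons and 548 codons. The subunits are thus close in length, at 531 to 556 codons. TCP1 overlaps ACAT2 on the opposite strand over 558 bases and hosts SNORA20 and SNORA29, and CCT6A hosts SNORA22B and SNORA15. CCT3, CCT4 and CCT5 overlap antisense genes or neighbours too, and since strand use in the counting is not given in the sources used here, those reads could not be told apart. Of 14 annotated pseudogenes of the members, CCT6P1 averaged 4.22 TPM, 1.14% of CCT6A, and CCT6P3 averaged 1.43 TPM.

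Since the members' levels moved together in some comparisons and apart in others, the promoters of TCP1, CCT2, CCT4 and CCT5 are shown, the members with the largest changes between groups or library kinds. RefSeq (GRCh38.p14) gave 250 bases before to 50 after the gene start for 7 members, and CCT6A is named only. Capitals mark matches to CCAAT, to the heat shock element GAANNTTC or TTCNNGAA, and to the ETS core CCGGAA, each searched on both strands. TCP1 is given from chr6:159789553-159789852 (minus strand), CCT2 from chr12:69585209-69585508 (plus), CCT4 from chr2:61888607-61888906 (minus) and CCT5 from chr5:10250287-10250586 (plus). The GENCODE 29 start of each of these 4 genes lies before the RefSeq start, so every window holds transcribed bases of that annotation, and the CCT5 window lies wholly inside the gene, which begins at 10249921.
TCP1: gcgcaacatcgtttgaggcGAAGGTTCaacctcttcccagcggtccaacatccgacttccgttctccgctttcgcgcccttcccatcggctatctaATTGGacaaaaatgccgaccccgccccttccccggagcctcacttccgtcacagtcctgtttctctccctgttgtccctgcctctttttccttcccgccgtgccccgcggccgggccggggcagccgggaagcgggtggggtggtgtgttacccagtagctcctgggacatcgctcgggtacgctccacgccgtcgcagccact
CCT2: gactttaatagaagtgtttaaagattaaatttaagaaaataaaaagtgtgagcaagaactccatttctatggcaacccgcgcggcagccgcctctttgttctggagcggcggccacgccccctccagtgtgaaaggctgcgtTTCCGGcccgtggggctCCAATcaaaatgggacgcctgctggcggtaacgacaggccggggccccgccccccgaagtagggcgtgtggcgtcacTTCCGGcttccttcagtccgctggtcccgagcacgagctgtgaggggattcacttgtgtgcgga
CCT4: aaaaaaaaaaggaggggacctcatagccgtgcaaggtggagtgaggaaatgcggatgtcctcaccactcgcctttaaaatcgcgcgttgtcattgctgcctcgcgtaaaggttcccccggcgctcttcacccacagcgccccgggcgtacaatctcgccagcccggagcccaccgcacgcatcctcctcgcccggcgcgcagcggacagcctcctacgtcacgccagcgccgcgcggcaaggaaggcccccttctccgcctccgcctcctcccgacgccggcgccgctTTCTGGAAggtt
CCT5: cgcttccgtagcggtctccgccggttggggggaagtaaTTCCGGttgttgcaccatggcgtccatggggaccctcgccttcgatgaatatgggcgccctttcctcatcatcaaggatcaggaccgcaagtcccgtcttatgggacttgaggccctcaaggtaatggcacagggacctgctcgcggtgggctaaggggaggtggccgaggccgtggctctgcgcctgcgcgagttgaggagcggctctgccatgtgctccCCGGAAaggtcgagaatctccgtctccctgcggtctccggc
CCAAT was found in 4 of the 7 promoters (TCP1, CCT2, CCT3 and CCT8) and in 35.7% of all 27305 promoters. The GC box GGGCGG was found in 5 of 7 and in 44.6% of all. The heat shock element was found in TCP1, at base -231 from the start, and in CCT4, at base 38, and in 13.7% of all promoters. The ETS core was found in CCT2 and CCT5, with 2 matches each, and in 17.6% of all. The E-box CACGTG was in 0 of 7 and 7.43% of all, and TATAAA was in 0 of 7 and 12.0% of all. The promoters of TCP1, CCT2, CCT4 and CCT5 held 28, 23, 35 and 25 CG steps, against a median of 14 over all promoters, and their G and C content was 63.3, 57.7, 65.3 and 63.3%, against a median of 58.3%. These matches describe the letters of a window and show no binding.

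All 8 members were expressed strongly in every library. By mean level their ranks among the 14426 tested genes ran from 144 for CCT5 to 453 for CCT4. CCT5 had the highest TPM of the 8 and CCT4 the lowest in each of the 30 libraries, although the rings hold equal numbers of each subunit. The ratio of CCT5 to CCT4 was 4.60 to 5.65 in second-kind and 2.72 to 3.50 in first-kind libraries. Over the first-kind libraries the highest level of a member was 1.25 times its lowest for CCT4 and 1.41 times for CCT2, with the other members between these.

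**Figure D1:**
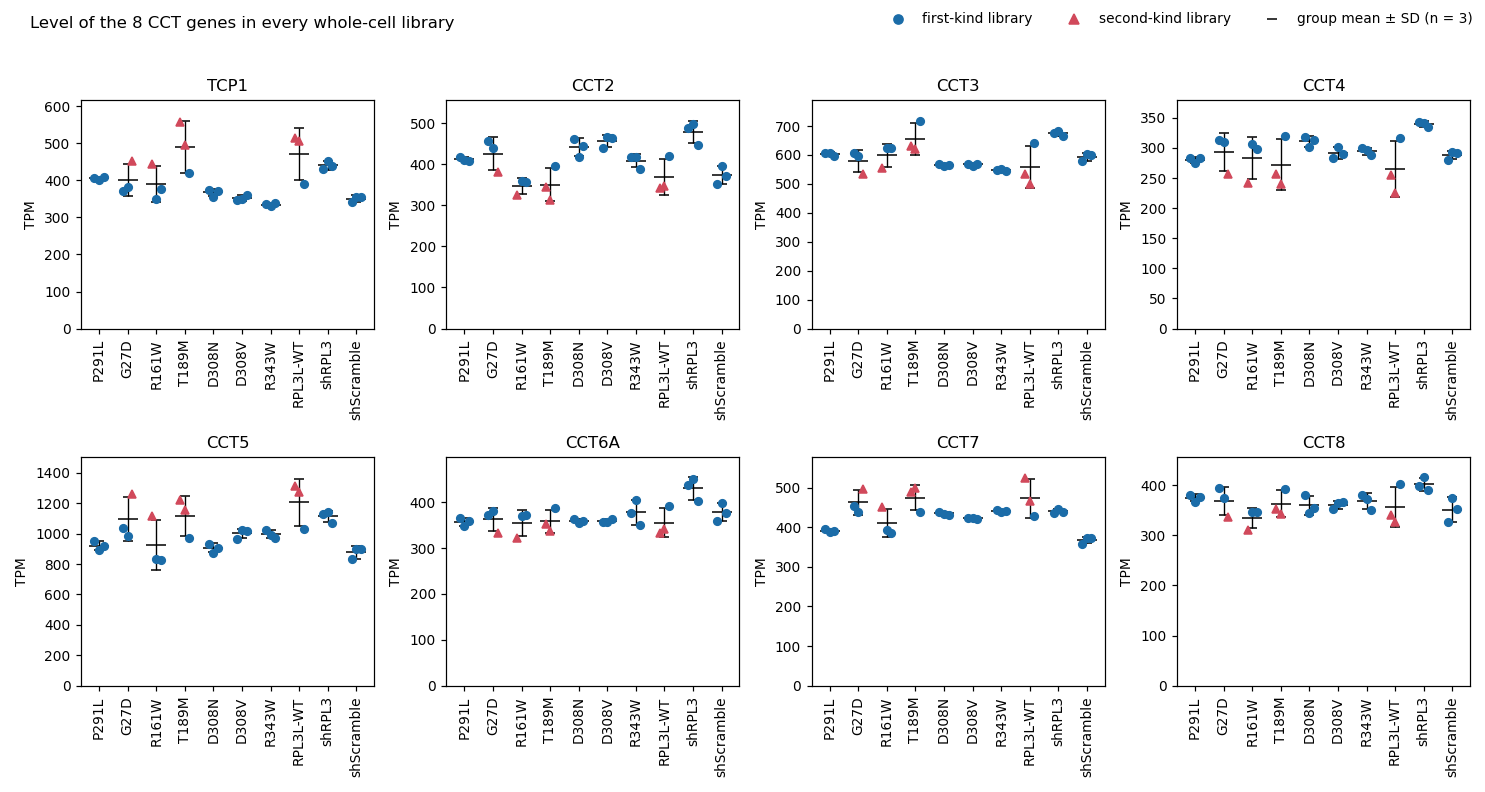
TPM of each CCT gene (y axis, 1 panel a gene) in the 30 libraries by group (x axis); circles are first-kind and triangles second-kind libraries, and bars are the mean ± SD of 3 libraries. Every shRPL3 library lies above every shScramble library in all 8 panels, and in most panels the triangles lie apart from the circles of the same group.

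The summed TPM of the 8 genes put the groups in order. The sum was 4083 ± 109 TPM in T189M, 4055 ± 91.3 in RPL3L-WT, 3989 ± 73.7 in G27D, 3813 ± 65.5 in D308V, 3768 ± 80.7 in R343W, 3748 ± 59.6 in P291L, 3744 ± 96.7 in D308N and 3645 ± 103 in R161W. It was highest in shRPL3, at 4322 ± 119 TPM, and lowest in shScramble, at 3581 ± 139 TPM (SD, n = 3 each). Over all libraries the neighbours in that order overlapped, except that every G27D library lay above every D308V library. Among first-kind libraries, shRPL3 (4194 to 4430 TPM) lay above all others in unscaled TPM, of which the highest was T189M 3 at 4041 TPM. The order depended on the TPM total. With median-ratio scaling in its place, the mean sum over all libraries was 4034.05 in shRPL3. That was below RPL3L-WT (4427.58), T189M (4275.2) and G27D (4180.05). The first-kind libraries labelled R161W, at 3585 and 3587 TPM, lay within the range of shScramble, 3426 to 3695 TPM.

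The order of the groups differed between members. CCT2, CCT3, CCT4, CCT6A and CCT8 had their highest group mean in shRPL3. TCP1 and CCT7 had theirs in T189M, at 490.1 ± 69.2 and 475 ± 32.5 TPM, and CCT5 in RPL3L-WT, at 1206 ± 155 TPM, groups with 2 second-kind libraries each whose ranges overlapped the next group's. Among first-kind libraries alone, shRPL3 came first for TCP1, CCT2, CCT4, CCT5, CCT6A and CCT8, second to T189M 3 for CCT3 and second to G27D for CCT7. The lowest group was R343W for TCP1 and CCT3, R161W for CCT2, CCT6A and CCT8, RPL3L-WT for CCT4, and shScramble for CCT5 and CCT7, over all libraries.

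Knockdown of RPL3 alone went with higher mRNA of the chaperonin. All 8 members were higher in every shRPL3 library than in any shScramble library, a pattern that 26.8% of all tested genes showed. In the pooled model 6 of 8 rose and 0 fell, where 17.2% of all genes rose and 18.0% fell, and CCT4 and CCT6A missed the threshold (limma). Within kinds all 8 rose, where 24.4% of all genes did. The median log2 fold change of the 8 was 0.25, against -0.01 over all tested genes.

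CCT5 was at 1132, 1139.8 and 1072 TPM in shRPL3, against 830.2, 901 and 897 TPM in shScramble. CCT2 was at 487, 499 and 448 TPM in shRPL3, against 353, 396 and 372 TPM in shScramble. TCP1 was at 430.3, 453 and 438 TPM in shRPL3, against 341, 356 and 356 TPM in shScramble. These 3 genes had the largest changes, with log2 fold changes of 0.35 (SE 0.11), 0.35 (SE 0.09) and 0.33 (SE 0.10), or 1.27-, 1.28- and 1.26-fold. Their limma adjusted p was 0.0137, 0.00225 and 0.0125 pooled, and 7.26e-08, 1.45e-06 and 1.45e-07 within kinds. CCT7 was at 437, 447 and 439 TPM in shRPL3, against 359, 372 and 374 TPM in shScramble, a log2 fold change of 0.26 (adjusted p = 0.00391). CCT4, the least abundant subunit mRNA, was at 344, 342 and 335 TPM in shRPL3, against 281, 293 and 292 TPM in shScramble. Its groups did not overlap, and its log2 fold change of 0.24 had a limma adjusted p of 0.0854 pooled and 1.85e-05 within kinds.

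CCT8 was at 399, 417 and 391 TPM in shRPL3, against 326, 375 and 353 TPM in shScramble. CCT3 was at 675, 682 and 667 TPM in shRPL3, against 578, 602 and 602 TPM in shScramble. CCT6A was at 438, 450.3 and 403 TPM in shRPL3, against 359.9, 399 and 377 TPM in shScramble. These 3 had the smallest changes, with log2 fold changes of 0.20, 0.18 and 0.18, and the nearest libraries of CCT6A were only a few TPM apart. Their limma adjusted p was 0.0447, 0.0486 and 0.0581 pooled, and 0.000677, 8.12e-06 and 0.0012 within kinds. Without the library labelled shRPL3 3, all 8 members still rose within kinds. Pooled, only 3 of the 8 passed without shScramble 1, the library with the lowest sum. With median-ratio scaling in place of the TPM total, 5 passed pooled, and TCP1, CCT5 and CCT7 did not (limma adjusted p = 0.0734, 0.0729 and 0.0621). With that scaling and the kind term all 8 passed.

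**Figure D2:**
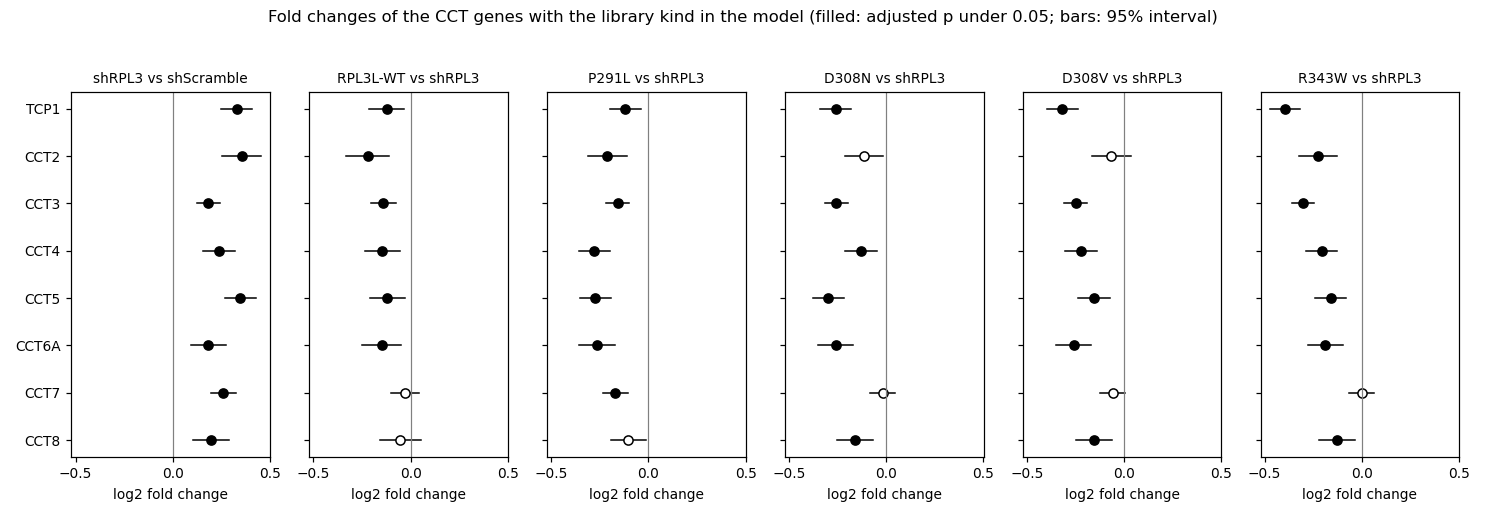
Log2 fold change (x axis) of each CCT gene (rows) in 6 comparisons, from the model with the library kind as a term; bars are 95% intervals and filled points have an adjusted p under 0.05. All 8 points are filled and to the right of 0 for shRPL3 against shScramble, and those of the RPL3L groups against shRPL3 lie at or to the left of 0.

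Adding wild-type RPL3L to the knockdown went with lower TPM of part of the chaperonin genes, and how many depended on the library kinds and on the scaling. With median-ratio scaling 0 members fell, without or with the kind term, where 1699 and 1231 of the 14426 genes fell. Their median log2 fold changes were then -0.01 and -0.02. The counts that follow are unscaled. Pooled, CCT2, CCT3, CCT4 and CCT6A fell in RPL3L-WT against shRPL3 and 0 rose, 4 of 8 where 30.2% of all genes fell and 5.77% rose. Within kinds 6 fell and 0 rose, where 20.1% of all genes fell and 6.27% rose. The genes as a whole were lower here: the median of all was -0.19 pooled and -0.10 within kinds, against -0.23 and -0.13 for the 8 members. Only RPL3L-WT 3 was of the first kind, so this group's values rest on 1 library beside all others of that kind.

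CCT2 was at 341, 347 and 421 TPM in RPL3L-WT, against 487, 499 and 448 TPM in shRPL3. CCT4 was at 255, 226 and 316 TPM in RPL3L-WT, against 344, 342 and 335 TPM in shRPL3. In both genes the groups did not overlap, and RPL3L-WT 3 lay nearer to shRPL3 than RPL3L-WT 1 and 2. The log2 fold change of CCT2 was -0.38 pooled (limma adjusted p = 0.00216) and -0.22 within kinds (0.00385), and that of CCT4 was -0.37 (0.00995) and -0.14 (0.0159). CCT3 was at 534, 501 and 639.9 TPM in RPL3L-WT, against 675, 682 and 667 TPM in shRPL3, with log2 fold changes of -0.28 pooled and -0.14 within kinds. CCT6A was at 333, 342 and 393 TPM in RPL3L-WT, against 438, 450.3 and 403 TPM in shRPL3, with log2 fold changes of -0.28 and -0.15. Both passed the threshold either way, but in first-kind libraries alone only TCP1 was called (-0.17), and in the RPL3L-WT and shRPL3 groups alone 0 were.

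TCP1 and CCT5 turned their sign between the models. TCP1 was at 516, 506 and 391 TPM in RPL3L-WT, against 430.3, 453 and 438 TPM in shRPL3. CCT5 was at 1314, 1276 and 1029 TPM in RPL3L-WT, against 1132, 1139.8 and 1072 TPM in shRPL3. RPL3L-WT 1 and 2 lay above shRPL3 in both genes and RPL3L-WT 3 below it. The log2 fold changes were 0.09 and 0.11 pooled, neither past the threshold, and -0.12 for each within kinds (limma adjusted p = 0.0346 and 0.0418). CCT7 had log2 fold changes of 0.10 pooled and -0.03 within kinds, and CCT8 of -0.18 and -0.05, and neither passed. With median-ratio scaling 1 member was called pooled, CCT7, which was higher at 0.32, and 0 were called within kinds.

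Against the scrambled hairpin, chaperonin genes were higher in RPL3L-WT, and how many depended on the library kinds and on the scaling. TCP1, CCT5 and CCT7 were higher pooled, 3 of 8 where 12.1% of all genes were, with log2 fold changes of 0.41, 0.45 and 0.35. Every RPL3L-WT library lay above every shScramble library in these 3 genes, a pattern that 13.4% of all tested genes showed. TCP1 was at 516, 506 and 391 TPM in RPL3L-WT, against 341, 356 and 356 TPM in shScramble. Within kinds 5 were higher, where 15.6% of all genes were: TCP1 (0.20), CCT2 (0.13), CCT5 (0.23), CCT7 (0.23) and CCT8 (0.15). TCP1, CCT5 and CCT7 were also the members higher in the second kind, to which RPL3L-WT 1 and 2 belong, and their values were smaller within kinds. With median-ratio scaling 6 of 8 were higher pooled, where 3168 of the 14426 genes were. With that scaling and the kind term 8 were, where 3281 of all genes were. The comparisons with shRPL3 and with shScramble share the RPL3L-WT libraries.

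Of the RPL3L variants, P291L, D308N, D308V and R343W were first-kind libraries throughout, as was shRPL3, so their levels can be set beside shRPL3 without the kinds. How many of the chaperonin genes fell in these 4 groups depended on the model. Pooled, 1, 2, 3 and 2 members fell in P291L, D308N, D308V and R343W, where 15.0, 12.4, 11.1 and 12.4% of all genes fell and 4.67, 5.73, 5.19 and 7.22% rose. The pooled count of P291L, 1 of 8, was thus not above its background. Within kinds, which here changes only the estimate of spread, 7, 6, 6 and 7 fell, where 27.3, 22.2, 22.4 and 22.8% of all genes fell, and 0 rose in any of the 4. With median-ratio scaling and no kind term, 0 fell in P291L and 1 in R343W. Every library lay below every shRPL3 library for 8, 6, 7 and 6 members, a pattern found in 36.8, 28.3, 30.3 and 28.6% of all genes. The median log2 fold changes of the 8 were -0.19, -0.21, -0.19 and -0.20, and those of all genes -0.10, -0.05, -0.07 and -0.06. These comparisons share the 3 shRPL3 libraries.

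TCP1 showed the widest range among the variants. It was at 408, 400.2 and 408 TPM in P291L, 374, 356 and 373 TPM in D308N, 348, 349 and 362 TPM in D308V and 335, 329.7 and 339 TPM in R343W, against 430.3, 453 and 438 TPM in shRPL3. None of these groups overlapped shRPL3, and R343W lay lowest, below shScramble as well (341, 356 and 356 TPM). The log2 fold changes were -0.12, -0.26, -0.32 and -0.40, each of which passed within kinds (limma adjusted p = 0.017, 1.04e-05, 7.24e-07 and 1.92e-08), and past it pooled in D308V and R343W (adjusted p = 0.03 and 0.00603). With median-ratio scaling the value for P291L was 0.00.

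CCT3 was at 606, 608 and 597 TPM in P291L, 568, 561 and 566 TPM in D308N, 569.6, 563 and 569 TPM in D308V and 546, 550.2 and 544 TPM in R343W, against 675, 682 and 667 TPM in shRPL3. All 4 groups were below shRPL3 with little spread, and D308N, D308V and R343W were also below shScramble (578, 602 and 602 TPM). The log2 fold changes were -0.16, -0.26, -0.25 and -0.30, past the threshold in all 4 within kinds and in all but P291L pooled. CCT6A was at 366, 348 and 359.7 TPM in P291L, 363, 355 and 358 TPM in D308N, 356, 358 and 363 TPM in D308V and 377, 406 and 351 TPM in R343W, against 438, 450.3 and 403 TPM in shRPL3. R343W 2 overlapped shRPL3 3 here, and the other 3 groups lay below. The log2 fold changes were -0.26, -0.26, -0.26 and -0.19, past the threshold in all 4 within kinds and in all but R343W pooled.

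CCT5 was at 953, 894 and 918 TPM in P291L, 934, 875 and 908 TPM in D308N, 964, 1024 and 1015 TPM in D308V and 1024, 993 and 974 TPM in R343W, against 1132, 1139.8 and 1072 TPM in shRPL3. All 4 groups lay below shRPL3, and P291L and D308N reached the range of shScramble (830.2, 901 and 897 TPM). The log2 fold changes of -0.27, -0.30, -0.16 and -0.16 passed within kinds in all 4 and pooled in none (limma pooled adjusted p = 0.0752, 0.0544, 0.371 and 0.327). CCT4 was at 283, 275 and 283 TPM in P291L, 318, 301 and 314 TPM in D308N, 283, 302 and 289.5 TPM in D308V and 299.5, 296 and 289 TPM in R343W, against 344, 342 and 335 TPM in shRPL3. P291L had the lowest mean of the 4, with a log2 fold change of -0.28. D308N, D308V and R343W had values of -0.13, -0.22 and -0.21, and each of the 4 passed within kinds.

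CCT2, CCT7 and CCT8 each passed in some of the 4 groups. CCT2 was at 418, 410.1 and 409 TPM in P291L, 461, 418 and 445 TPM in D308N, 439, 467 and 463 TPM in D308V and 418, 418 and 389.7 TPM in R343W, against 487, 499 and 448 TPM in shRPL3. D308N and D308V overlapped shRPL3 (log2 fold changes -0.11 and -0.07, not past the threshold), while P291L and R343W did not (-0.21 and -0.23, past it within kinds). CCT7 was at 396, 389 and 391 TPM in P291L, 439.8, 434 and 432 TPM in D308N, 424, 425 and 421 TPM in D308V and 443, 439 and 441 TPM in R343W, against 437, 447 and 439 TPM in shRPL3. Of these only P291L fell within kinds, by 0.17 on the log2 scale, and R343W lay within the shRPL3 range (-0.00). CCT8 had log2 fold changes of -0.10 in P291L, which did not pass, and of -0.16, -0.15 and -0.13 in D308N, D308V and R343W, which passed within kinds. Without the library labelled shRPL3 3 the counts within kinds were 7, 7, 6 and 7, with CCT2 added in D308N.

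Median-ratio scaling and the kind term together left 3 members lower in P291L (CCT4, CCT5 and CCT6A), 4 in D308N (TCP1, CCT3, CCT5 and CCT6A), 4 in D308V (TCP1, CCT3, CCT4 and CCT6A) and 5 in R343W (TCP1, CCT2, CCT3, CCT4 and CCT6A). Of the 14426 genes tested, 2033, 2347, 1923 and 2427 were lower in P291L, D308N, D308V and R343W under the same model. CCT6A was the member lower in all 4. Under that scaling some values reached 0 or turned positive without passing the threshold: TCP1 in P291L (0.00), CCT8 in P291L (0.02), CCT2 in D308V (0.02), and CCT7 in D308N, D308V and R343W (0.05, 0.03 and 0.06).

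Against wild-type RPL3L, the variants D308N, D308V and R343W had lower TCP1. It was at 374, 356 and 373 TPM in D308N, 348, 349 and 362 TPM in D308V and 335, 329.7 and 339 TPM in R343W, against 516, 506 and 391 TPM in RPL3L-WT. No library of these variants reached the lowest RPL3L-WT library, which was the one of the first kind. The log2 fold changes were -0.35, -0.40 and -0.48 pooled (limma adjusted p = 0.0104, 0.00374 and 0.000769) and -0.14, -0.19 and -0.27 within kinds (0.0175, 0.00123 and 3e-05). CCT3 had log2 fold changes of 0.02, 0.03 and -0.02 pooled, none past the threshold, and of -0.12, -0.11 and -0.16 within kinds, all past it. Its levels in these groups, 544 to 569.6 TPM, lay between RPL3L-WT 1 and 2 (534 and 501 TPM) and RPL3L-WT 3 (639.9 TPM).

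CCT2 was higher in D308V in both models, and not under every alternative. It was at 439, 467 and 463 TPM in D308V, against 341, 347 and 421 TPM in RPL3L-WT, with no overlap and log2 fold changes of 0.31 pooled and 0.16 within kinds (limma adjusted p = 0.00846 and 0.0324). In first-kind libraries the value was 0.12 and did not pass (adjusted p = 0.243). It also did not pass with scaling and the kind term together, in the D308V and RPL3L-WT groups alone, or without RPL3L-WT 1 or 2. In D308N the values were 0.26, past the threshold, and 0.11, not past it (0.144). CCT5 was at 934, 875 and 908 TPM in D308N, against 1314, 1276 and 1029 TPM in RPL3L-WT, with log2 fold changes of -0.41 and -0.18, both past the threshold. Pooled, D308N had 1 member higher and 2 lower, D308V 1 higher and 1 lower, and R343W 0 higher and 1 lower. Of all genes, 23.7, 21.6 and 24.5% were higher and 9.48, 9.03 and 9.19% lower. The pooled medians over all genes were 0.13, 0.11 and 0.13 in D308N, D308V and R343W, and those CCT genes that were lower ran against them. Median-ratio scaling gave 0 higher and 5 lower in D308N, 1 higher and 3 lower in D308V and 0 higher and 3 lower in R343W, and the rise of CCT2 in D308N no longer passed. Of all 14426 genes tested, that scaling gave 2222, 2179 and 2263 higher and 2363, 2175 and 2329 lower in these 3 variants. Fitted on the groups compared alone, 0 passed in D308N and in D308V. Within kinds D308N had 0 higher and 3 lower, D308V 1 higher and 2 lower, and R343W 0 higher and 2 lower, where 17.5, 16.2 and 18.8% of all genes were higher and 12.8, 12.7 and 12.6% lower.

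**Figure D3:**
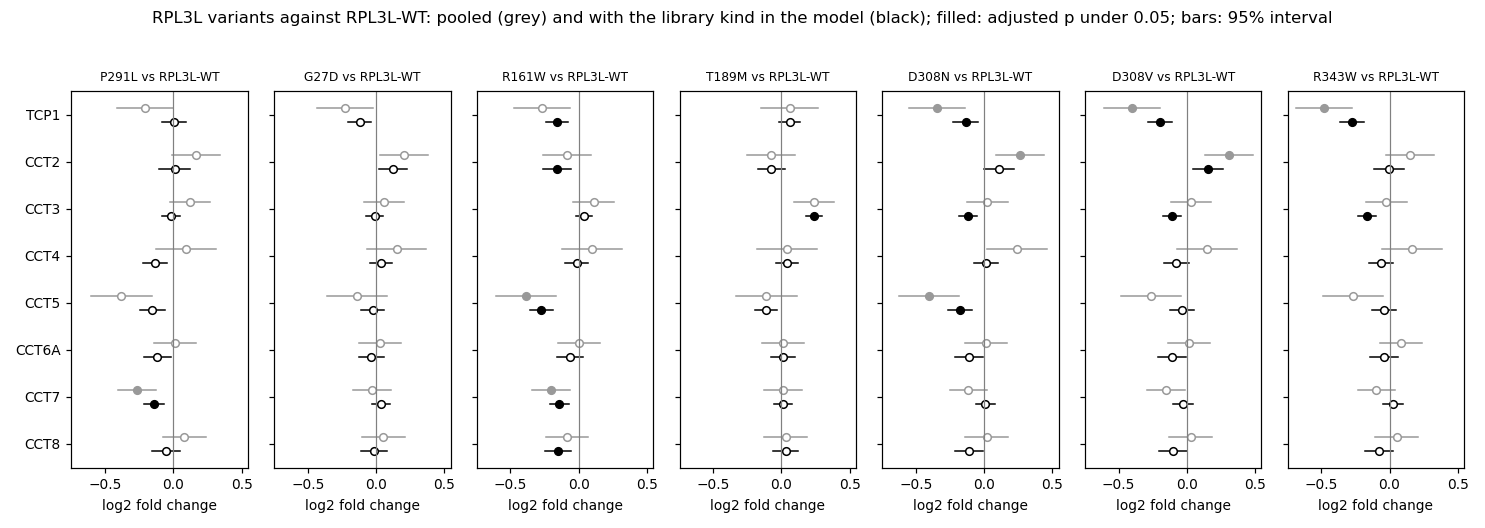
Log2 fold change (x axis) of each CCT gene (rows) in the 7 RPL3L variants against RPL3L-WT, pooled in grey and with the library kind as a term in black; bars are 95% intervals and filled points have an adjusted p under 0.05. TCP1 is left of 0 in D308N, D308V and R343W in both models, and no point is filled in both models for G27D or T189M.

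In P291L only CCT7 fell against RPL3L-WT, 1 of 8 where 1.09% of all genes fell pooled and 1.16% within kinds, and 1.66% rose pooled. It was at 396, 389 and 391 TPM in P291L, against 526, 465 and 427 TPM in RPL3L-WT, with no overlap and log2 fold changes of -0.27 and -0.14 (limma adjusted p = 0.0335 and 0.0368). The call was lost with no filter, in first-kind libraries, in the P291L and RPL3L-WT groups alone, with scaling and the kind term together, and without RPL3L-WT 1, RPL3L-WT 2 or any 1 of the P291L libraries. In G27D 0 members passed in limma, pooled or within kinds, where 1.55 and 4.31% of all genes rose and 1.77 and 6.02% fell. At an unadjusted p under 0.05, 1 member was higher and 1 lower in G27D in each model, CCT2 and TCP1. Their pooled log2 fold changes were 0.20 and -0.23. T189M also had 0 members pooled, where 1.39% of all genes rose, and 1 higher at an unadjusted p under 0.05. Within kinds CCT3 was higher by 0.24 (limma adjusted p = 7.17e-06), where 7.51% of all genes were higher and 3.08% lower. CCT3 was at 629.7, 619.8 and 719 TPM in T189M, against 534, 501 and 639.9 TPM in RPL3L-WT, and within each kind every T189M library lay above the RPL3L-WT libraries. RPL3 was also higher in these T189M libraries than in RPL3L-WT of the same kind, and its part in the difference was not tested.

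The libraries labelled R161W, whose RPL3 went against their label, had lower CCT5 and CCT7 than RPL3L-WT pooled, 2 of 8 where 4.07% of all genes fell. CCT5 was at 1116, 835 and 828 TPM in the libraries labelled R161W, against 1314, 1276 and 1029 TPM in RPL3L-WT. The highest value of the R161W label was its second-kind library, and within each kind the R161W libraries lay below those of RPL3L-WT. The log2 fold change was -0.39 pooled (limma adjusted p = 0.0155) and -0.27 within kinds (2.2e-05). Within kinds TCP1 (-0.16), CCT2 (-0.16), CCT7 (-0.14) and CCT8 (-0.15) fell as well, 5 of 8 where 8.87% of all genes fell.

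D308N and D308V change the same residue to different amino acids. Pooled, 0 members differed between them in limma, also at an unadjusted p under 0.05, where 0.776% of all genes were higher in D308N and 0.866% lower. Within kinds CCT5 was lower in D308N by 0.14 on the log2 scale (adjusted p = 0.0215), where 4.19% of all genes were lower, and 0 members were higher. Its levels were 934, 875 and 908 TPM in D308N, against 964, 1024 and 1015 TPM in D308V, with no overlap. CCT7 did not overlap either, at 432 to 439.8 TPM in D308N against 421 to 425 TPM in D308V, and its log2 difference of 0.04 did not pass.

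The balance among the 8 subunit mRNAs moved with the library kind. CCT5 made up a mean of 30.4% of the summed CCT TPM in second-kind libraries and 25.1% in first-kind libraries. TCP1 made up 12.3% in the second kind and 9.82% in the first, and CCT7 12.1% and 10.9%. The other 5 had smaller shares in the second kind: CCT3 14.0% against 15.7%, CCT2 8.49% against 11.0%, CCT6A 8.37% against 9.85%, CCT8 8.32% against 9.68% and CCT4 6.11% against 7.92%. In the model, TCP1, CCT5 and CCT7 were higher in the second kind by 0.31, 0.34 and 0.19 on the log2 scale. CCT2, CCT3, CCT4, CCT6A and CCT8 were lower, with values of -0.23, -0.21, -0.34, -0.19 and -0.20. All 8 passed the threshold, where 14.5% of all genes were higher and 43.3% lower, and the median of all genes was -0.15. The kinds are not in the labels, and what sets them apart was not tested.

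**Figure D4:**
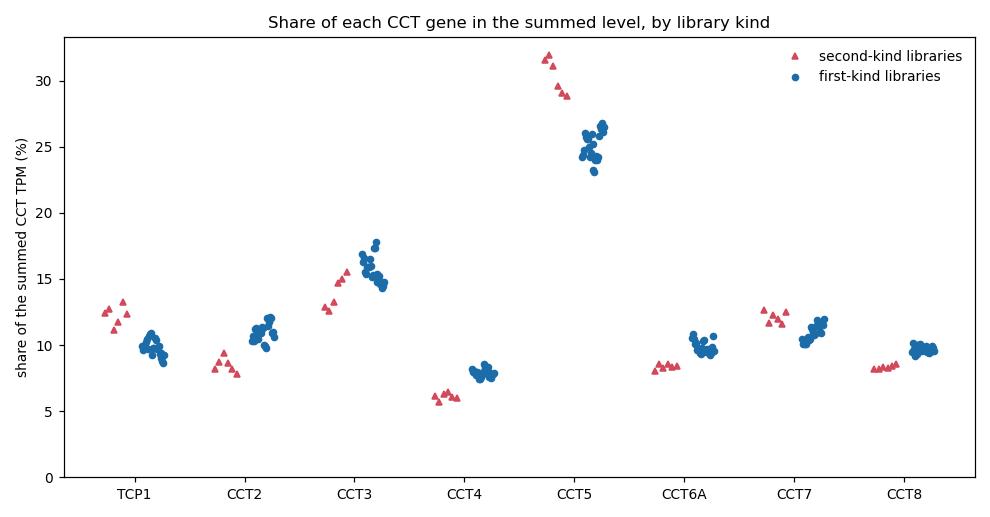
Share of each CCT gene in the summed CCT TPM (y axis, percent) in second-kind and first-kind libraries. CCT5, TCP1 and CCT7 have larger mean shares in the second kind (30.4, 12.3 and 12.1%) than in the first (25.1, 9.82 and 10.9%).

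RPL3 and the summed chaperonin level did not follow 1 line across groups. The groups with the highest RPL3, shScramble and the libraries labelled R161W, had the lowest sums in unscaled TPM. The group shRPL3, with RPL3 at 499.6 to 569.8 TPM, had the highest. With median-ratio scaling it was no longer highest, at a sum of 4034.05, against 4427.58 in RPL3L-WT, 4275.2 in T189M and 4180.05 in G27D. The sums below are unscaled too. D308V had RPL3 at 571, 568 and 569.7 TPM, next to shRPL3, yet a sum of 3813 ± 65.5 TPM, against 4322 ± 119 TPM in shRPL3. T189M 3 had RPL3 at 1246 TPM and a sum of 4041 TPM. The points fall into groups, so no correlation is given.

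**Figure D5:**
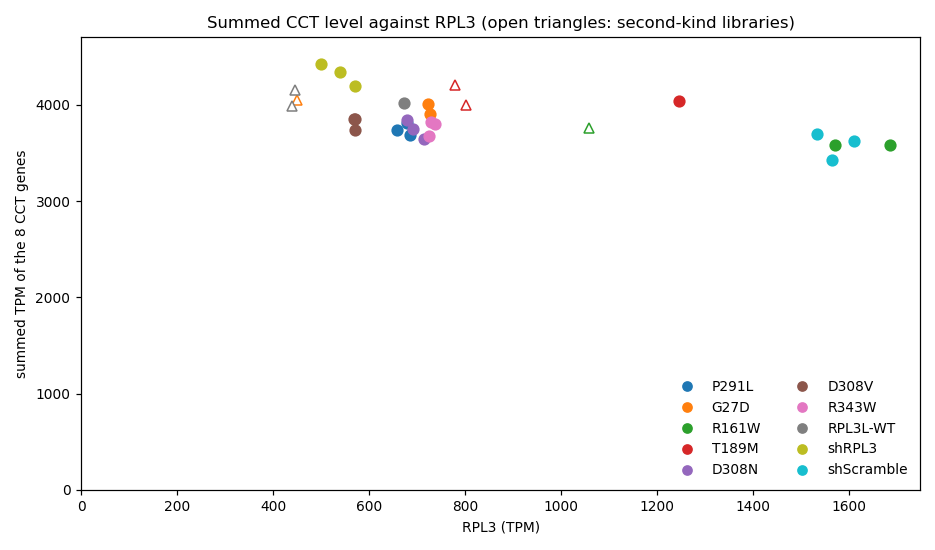
Summed TPM of the 8 CCT genes (y axis) against RPL3 TPM (x axis), 1 point a library, coloured by group; open triangles are second-kind libraries. The shRPL3 libraries sit highest at low RPL3, and D308V sits lower at similar RPL3.

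The genes that work with the chaperonin were counted in lists, again for shRPL3 against shScramble. Of the 6 prefoldin subunits, 4 rose pooled and 6 within kinds, and 0 fell, where 17.2 and 24.4% of all genes rose. PFDN2 was at 319, 327 and 330.3 TPM in shRPL3, against 210.3, 216 and 216 TPM in shScramble, a log2 fold change of 0.60 (limma adjusted p = 3.36e-09). PFDN4 was at 184, 191 and 179 TPM in shRPL3, against 113, 131 and 117 TPM in shScramble (0.62, adjusted p = 2.26e-05), and PFDN6 rose by 0.45. Both PFDN2 and PFDN4 were far from overlapping, and their changes were larger than that of any CCT gene. The list's median was 0.39, against -0.01 over all genes. Of 3 phosducin-like cofactors, 0 passed pooled in limma, also at an unadjusted p under 0.05, and 2 rose within kinds. Of 7 prefoldin-like and R2TP genes, a co-chaperone assembly complex, 2 rose pooled and 3 within kinds, among them the ATPase RUVBL1 (0.32) and UXT (0.28).

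Most tubulin genes fell. Of 13 actin and tubulin genes, 8 fell pooled, all of them tubulins, and 12 fell within kinds, and 0 rose, where 18.0% of all genes fell pooled and 24.5% within kinds. TUBA1A, an alpha-tubulin, was at 148, 141 and 147 TPM in shRPL3, against 319.7, 307 and 309 TPM in shScramble, a log2 fold change of -1.10 (limma adjusted p = 3.23e-12). TUBA4A fell by 0.61 and TUBB3 by 0.52, while the actin ACTG1 was at 0.00. The other actin of the list, ACTB, was among the 12 that fell within kinds. The list's median was -0.31. Of 5 tubulin cofactors, which fold and pair tubulins after release from the chaperonin, only TBCC rose, by 0.74. It was at 28.8, 26.2 and 29.7 TPM in shRPL3, against 18.1, 15.8 and 15.6 TPM in shScramble.

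Of 9 WD40 clients, 1 rose and 3 fell pooled, and 2 rose and 3 fell within kinds. With 17.2% of all genes higher and 18.0% lower pooled, and 24.4 and 24.5% within kinds, these counts were near the background. PPP2R2A, a phosphatase subunit, rose by 0.55, and FZR1, an activator of the anaphase-promoting complex, and GNB1, a G protein beta subunit, fell by 0.67 and 0.34. Of 5 CCT-like genes, 3 were tested and 0 passed pooled in limma, with 1 at an unadjusted p under 0.05, and 1 rose within kinds, BBS10. Of the mitochondrial chaperonin genes HSPD1 and HSPE1 and the factors HSF1 and HSF2, only HSPD1 rose pooled (0.25), and within kinds 2 of the 4 rose.

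The actin and tubulin list had other counts from construct to construct against shRPL3. Of the 13 actin and tubulin genes, 4 rose and 0 fell in RPL3L-WT against shRPL3 pooled, and 8 and 0 within kinds, where 5.77 and 6.27% of all genes rose. P291L against shRPL3 also had 4 higher pooled and 8 within kinds, and 0 lower in either model, where 4.67 and 8.52% of all genes rose. D308N, D308V and R343W against shRPL3 had 0, 0 and 1 higher and 5, 2 and 5 lower pooled, and 0, 0 and 1 higher and 8, 8 and 9 lower within kinds. Of all genes, 12.4, 11.1 and 12.4% were lower pooled and 22.2, 22.4 and 22.8% within kinds, so the pooled count of D308V was near its background. TUBA4A was at 89.9, 94.2 and 93.3 TPM in P291L and 124, 118 and 84.5 TPM in RPL3L-WT, against 61.0, 59.8 and 62.9 TPM in shRPL3. TUBA1A was at 74.0, 69.9 and 70.7 TPM in D308N, 77.4, 80.4 and 78.5 TPM in D308V and 78.6, 86.5 and 85.1 TPM in R343W, against 148, 141 and 147 TPM in shRPL3. No library of D308N, D308V or R343W reached any shRPL3 library in TUBA1A. Tested against RPL3L-WT within kinds, 12, 12 and 11 of the 13 were lower in D308N, D308V and R343W and 0 higher, where 12.8, 12.7 and 12.6% of all genes were lower. For P291L 0 passed either way in limma (3 at an unadjusted p under 0.05), with 1 higher pooled. Prefoldin had 0, 1, 0, 1 and 0 higher and 3, 1, 2, 2 and 2 lower of 6 within kinds, for P291L, D308N, D308V, R343W and RPL3L-WT against shRPL3. Of all genes 27.3, 22.2, 22.4, 22.8 and 20.1% were lower there. Only the count of D308N was not above its share. With 6 genes in the list, the other counts are not read as a fall of prefoldin.

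The mitochondrial chaperonin genes also fell in variants against shRPL3, with the lowest values in D308N. HSPE1 was at 587, 554 and 571 TPM in D308N, against 940.2, 973 and 877 TPM in shRPL3 (log2 fold change -0.70). HSPD1 was at 549.8, 490.3 and 518 TPM in D308N, against 838, 851 and 766 TPM in shRPL3 (log2 fold change -0.66). Both passed in limma, and both were below shScramble too, where HSPE1 was at 847, 948 and 896 TPM and HSPD1 at 647, 714 and 695 TPM. In D308V the log2 fold changes of HSPE1 and HSPD1 were -0.56 and -0.41 and in R343W both were -0.30, all past the threshold pooled and within kinds. In P291L they were -0.21 and -0.35, of which HSPD1 passed pooled and both passed within kinds. The changes in D308N were larger than those of the CCT genes in the same comparison, of which CCT5 had the largest at -0.30.

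The members followed each other unevenly. Over the 24 first-kind libraries, Pearson's r between 2 members ran from 0.03 for CCT3 and CCT7 to 0.82 for TCP1 and CCT3. Over all 30 libraries, which include the second kind, r was 0.86 for CCT5 and CCT7, 0.77 for TCP1 and CCT5, and -0.47 for TCP1 and CCT4. These are descriptions over libraries that share groups and kind. Among 10388 genes compared, those most like the mean of the 8 members over the 24 first-kind libraries were GCSH (r = 0.900), SUB1 (0.899), PPA1 (0.897), ATP5PB (0.870) and ACTL6A (0.867). GCSH, a protein of glycine cleavage, averaged 80.5 TPM in shRPL3 and 48.7 TPM in shScramble.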

How the data were processed

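PolyA RNA was made into libraries with TruSeq chemistry, per the labels' protocols. Per the submitters' processing notes the tools included kallisto, Bowtie, bedtools and bcl2fastq 2.19. Which build and annotation they used is not given in the sources used here. Per gene, the authors deposited TPM, each library summing to 1000000, for 60612 entries, of which 6 construct entries were left out. The TPM of the other entries were not rescaled after that. There were 0 value columns without a matching label.

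Values were analysed as log2(TPM + 1), computed here from the deposited linear values, which understates changes of low genes. Genes with a mean of at least 1 TPM were fitted with limma 3.58.1 in R 4.3.3 (1 model over 10 groups, robust eBayes with a trend). Tests were two-sided, and p was adjusted by Benjamini-Hochberg over the 14426 genes of a comparison, with a threshold of 0.05. The fit was tested on simulated data, with planted changes larger than those of the CCT genes between shRPL3 and shScramble. That test does not show how well changes as small as theirs are found. The members and lists were chosen with earlier results of these data known. Named genes were the 8 members and, per list and comparison, up to 3 of those past the threshold with the largest change; others are named to describe a list.

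The library kind was the first principal component of 334 pseudogenes, where a gap of 14.03 parted 6 libraries and the next gap was 2.0. Replicate numbers did not pair samples: same-numbered deviations correlated above 0.1 in all 3 pairs only for T189M and RPL3L-WT, whose numbers coincide with the kinds. Alternatives were another pseudocount, no filter, median-ratio scaling, the kind term, first-kind libraries only, the groups of a comparison only, a replicate block and each replicate left out. Median-ratio scaling with the kind term, and the kind term without shRPL3 3, were chosen after seeing the data. Tables and figures used Python 3.11.15, numpy 2.4.6, pandas 2.3.3 and matplotlib 3.10.9.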

Additional observations from a re-analysis of the deposited data

Results flagged for a closer look

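The library labelled shRPL3 3 held signal from the RPL3L construct, which its label does not name. The construct's EBFP2 entry was at 433.8 TPM and its rtTA3 entry at 427.9 TPM there, while shScramble held 0 of both. These entries were not tested as genes, but they count in each library's TPM total, which was not rescaled without them. In the groups with RPL3L, rtTA3 was at 8118 to 17980 TPM and EBFP2 at 8373 to 19650 TPM. What they take of the total of 1000000 TPM is missing from the TPM of the other genes there. Unscaled comparisons of those groups with shRPL3 or shScramble include this. Its effect on their fold changes was not tested.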

How the results depend on the processing

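Counts below are of the 8 members called, over limma fits. A pseudocount of 0.1 left all 120 member calls in 15 comparisons on their side of the threshold, and a replicate block left 118 of 120 so. With the replicate block CCT3 and CCT8 no longer passed for shRPL3 against shScramble, leaving 4 called, and no other count moved. Replicate numbers are only shared and pair no samples here. Median-ratio scaling alone gave 1 for RPL3L-WT against shRPL3 (reversed to higher), 6 for RPL3L-WT compared with shScramble, 4 for R161W, 1 for T189M, 5 for D308N (all lower), 4 for D308V (1 higher, 3 lower) and 3 for R343W (all lower) against RPL3L-WT, and 0 for P291L and 1 for R343W against shRPL3. It moved the summed level to 4427.58 scaled TPM in RPL3L-WT, 4180.05 in G27D, 4275.2 in T189M, 3681.21 in R343W, 4034.05 in shRPL3 and 3352.81 in shScramble. Before scaling, all genes had medians (log2) of -0.19 and -0.18 for RPL3L-WT against either hairpin group (shRPL3 and shScramble), -0.10 for P291L against shRPL3 and 0.10 for the libraries labelled R161W against RPL3L-WT, which scaling brought near 0.

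With the kind term the counts were 5 in RPL3L-WT compared with shScramble, 5, 1 and 2 for R161W, T189M and R343W against RPL3L-WT, 1 for D308N against D308V, and 7, 6, 6 and 7 for P291L, D308N, D308V and R343W against shRPL3. With first-kind libraries only they were 1 for RPL3L-WT against shRPL3 (TCP1), 6 against shScramble, 0, 4 and 2 for P291L, R161W and R343W against RPL3L-WT, 1 for D308N against D308V, and 7, 6, 6 and 7 against shRPL3 for the 4 variants. With only the groups compared they were 0 for RPL3L-WT against shRPL3, 0 for P291L, R161W, D308N and D308V against RPL3L-WT, and 8, 6, 6 and 5 against shRPL3. With no filter P291L and R161W against RPL3L-WT had 0 and 1. Scaling with the kind term gave 0 for RPL3L-WT against shRPL3, 8 against shScramble, 1, 0, 6 and 2 for G27D, P291L, R161W and T189M and 5, 4 and 3 (all lower) for D308N, D308V and R343W, each set against RPL3L-WT, 1 for D308N against D308V, and 3, 4 and 5 for P291L, D308N and R343W against shRPL3. Without shRPL3 3, the kind term gave 7, 7, 6 and 7 against shRPL3.

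Leaving out a replicate gave 3 to 6 for shRPL3 against shScramble (3 without shScramble 1), 2 to 6 for RPL3L-WT against shRPL3 (2 without RPL3L-WT 2, 6 without RPL3L-WT 3) and 3 to 5 for RPL3L-WT against shScramble (5 without RPL3L-WT 3, 3 higher and 2 lower). Against RPL3L-WT it gave 0 to 5 for P291L, 0 to 2 for G27D, 0 to 4 for R161W, 0 to 1 for T189M, and 1 to 5 for each of D308N, D308V and R343W, where the highest count was always without RPL3L-WT 3, the first-kind library, and each count of 5 was 2 higher and 3 lower. P291L had 0 without RPL3L-WT 1, RPL3L-WT 2 or any P291L library, and R161W 0 without RPL3L-WT 1 or 2 or R161W 2 or 3. D308N and D308V had 1 without RPL3L-WT 1 or 2. Against shRPL3 it gave 0 to 1 for P291L (0 without shRPL3 2 or P291L 2), 1 to 2 for D308N (1 without shRPL3 1, shRPL3 2 or D308N 2), 0 to 2 for D308V (0 without shRPL3 2 or D308V 2) and 2 to 3 for R343W, and it left D308N against D308V at 0.

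Single values turned their sign as follows. For RPL3L-WT against shRPL3, TCP1 was -0.12 with the kind term and -0.17 in first-kind libraries, and CCT5 -0.12, or -0.15 without shRPL3 3. For RPL3L-WT against shScramble, CCT2 was 0.20 scaled, 0.13 with the kind term and 0.25 with both, CCT3 0.12 scaled, 0.11 in first-kind libraries and 0.16 with both, CCT4 0.13 in first-kind libraries and 0.20 with both, and CCT6A 0.15 with both. For D308N against RPL3L-WT, CCT3 was -0.13 scaled, -0.12 with the kind term, -0.18 in first-kind libraries and -0.17 with both, CCT6A -0.14 scaled and -0.16 with both, and CCT8 -0.13 and -0.16. For D308V, CCT3 was -0.11 with the kind term, -0.17 in first-kind libraries and -0.14 with both, CCT6A -0.14 and CCT8 -0.13 with both, and for R343W CCT4 was -0.11 with both. The cause was not tested. TPM keep no depth, so counting error could not be given.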
